A study of Mus musculus with 8 samples.

Results

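The genes described here were 40 genes of DNA replication and cell division, measured as messenger RNA in neutrophils taken from the lungs of mice. They were chosen by symbol, and each was found through its RefSeq accession on exactly 1 of the 24625 rows of the value table, whose rows carried 19836 distinct gene symbols. All mice were wild type (WT) C57BL/6J animals, 6 to 12 weeks old per the labels. The study's methods say that adult females were bought, that colonies were raised and that the mice studied were matched for sex. They do not name the sex of the mice studied. Of the 8 samples, 4 came from mice given phosphate-buffered saline (PBS) and 4 from mice given Streptococcus pneumoniae of serotype 19 (SP), a bacterium that causes pneumonia. The left lung received 2.3 µl of either fluid per g of mouse through the trachea, and 24 h later cells were taken. The lungs were digested to single cells, neutrophils were drawn out with magnetic beads against the surface protein Ly6G, and the RNA of each sample was hybridised to 1 Affymetrix Mouse Gene ST array. The labels do not say whether each sample was 1 mouse, while a figure legend of the study describes each as taken from a mouse. The p-values measure the spread between these samples, which may be partly technical.

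Neutrophils are produced in the bone marrow from precursors that divide, and mature neutrophils are regarded as cells that have left the cell cycle. A dividing cell loads the MCM helicase onto its replication origins and copies its DNA with a supply of newly made deoxynucleotides. Cyclin A and cyclin B then act with Cdk1, the chromosomes are condensed and pulled apart on the spindle, and the cell is cut into daughters. Transcription of many genes of these steps is restrained in resting cells by pocket proteins on E2F sites and by the MuvB complex on an element called CHR, which often lies near CCAAT boxes bound by NF-Y.

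Values are log2 intensities, and a difference is the SP mean minus the PBS mean, tested with limma over all rows (standard errors, SE, come from that fit, n = 4 samples a group). A gene is said to have risen or fallen where its adjusted p was at most 0.05. A level on one row cannot be set against a level on another, because each row has probes of its own. The label held in that the neutrophil markers were bright in both groups: Retnlg averaged 13.36 ± 0.03 in PBS and 12.88 ± 0.35 in SP (4 samples each, ± SD), and S100a8 averaged 13.20 ± 0.06 in PBS and 13.02 ± 0.22 in SP. Markers of other lung cells were present as well and moved with the group. Among lists of such markers, the fallen were 6 of 6 for ciliated cells, 4 of 4 for club cells, 6 of 6 for B cells, 7 of 8 for endothelium, 6 of 7 for alveolar type 2 cells, 3 of 5 for alveolar type 1 cells, 6 of 8 for alveolar macrophages, 2 of 7 for fibroblasts, 2 of 6 for platelets and 3 of 8 for neutrophils. The risen were 3 of 8 for monocytes and macrophages, 1 of 7 for T cells, 1 of 5 for secondary granules of neutrophil precursors and 5 of 7 for primary granules of neutrophil precursors. Over all rows, 22.6% fell and 21.5% rose, so counts of 1 or 2 in lists this short are not far from those shares. Some of these counts moved when 1 array was left out: the neutrophil count was 0 without PBS replicate 3 or 4 or SP replicate 1 or 2 (and with centred arrays) and 7 without SP replicate 3, and the primary granule count was 2 without any 1 of the PBS arrays or without SP replicate 1. Over such fits the count was 3 to 6 for alveolar type 2 cells, 6 or 7 for alveolar macrophages and 1 to 3 for fibroblasts and platelets. It was 0 to 3 for T cells, 2 to 4 for monocytes and macrophages and 0 or 1 for rises of secondary granules, where 2 genes fell without SP replicate 3. Erythroid markers had 1 rise and 1 fall among 6, and the 6 markers of NK cells had adjusted p-values of at least 0.247. In a bulk sample, fewer cells of a type and less RNA per cell cannot be told apart.

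Dividing cells of any type carry the 40 genes, so the summed levels of marker lists (the sum of the unlogged intensities over a list) are given here for cells that could stand beside neutrophils in a lung digest. B cell markers summed to 1676 to 3272 on the PBS arrays and 395 to 1041 on the SP arrays, led by Cd79b and Cd79a. Alveolar macrophage markers summed to 7378 to 12816 and 2687 to 4340, led by Ear2 and Car4. Endothelial markers summed to 13441 to 26142 and 5404 to 9368, led by Calcrl and Cdh5. Other sums overlapped between the groups and reached higher on the SP arrays. Monocyte and macrophage markers summed to 2711 to 5283 on the PBS arrays and 4183 to 8626 on the SP arrays. For T cell markers the sums were 303.7 to 504.5 and 348.4 to 857.1, and for NK cell markers 210.5 to 268 and 216.6 to 348.4. The primary granule list of neutrophil precursors was higher without overlap, with 184 to 245 on the PBS arrays and 480 to 593 on the SP arrays. That rise lay mostly in the regulators Cebpe (6.23 ± 0.63 in PBS and 8.03 ± 0.19 in SP) and Gfi1 (4.93 ± 0.11 in PBS and 7.16 ± 0.70 in SP), while the granule proteins that define the stage read near background, with Mpo at 4.45 ± 0.14 in PBS and 4.92 ± 0.33 in SP and Elane at 4.58 ± 0.02 in PBS and 4.78 ± 0.04 in SP. Transcripts of the Y chromosome, which female mice lack, read 4.33 to 4.90 and serve here as a measure of background. This use takes the mice to be female, which the methods do not state outright. The 3 Y-linked genes were themselves slightly higher in SP, by 0.12 to 0.19. Over all rows below the array median on every array, the median difference was 0.15. Differences of about that size near background, as in Elane, cannot be told apart from this shift. The part of other cells in the differences below was not tested.

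Promoters are shown first for the members with the largest differences in each direction, because the elements named above are those through which this class of genes is known to be switched. RefSeq promoters (mouse build GRCm38.p6, from 250 bases before to 50 bases after the start) were given for 33 of the 40 genes, 35 promoters in all. Ccna2, Aurkb, Mcm4, Foxm1, Cdc25c, Kif20a and Ccne2 had none in the table. Each was searched on both strands for the CHR element (TTTGAA or TTCGAA), the CCAAT box (CCAAT) and an E2F motif (TTTCCCGC, TTTCGCGC, TTTGCCGC or TTTGGCGC). The letters that matched are in capitals, so ATTGG is a CCAAT box on the opposite strand.
Mki67 (chr7:135716330-135716629, minus strand): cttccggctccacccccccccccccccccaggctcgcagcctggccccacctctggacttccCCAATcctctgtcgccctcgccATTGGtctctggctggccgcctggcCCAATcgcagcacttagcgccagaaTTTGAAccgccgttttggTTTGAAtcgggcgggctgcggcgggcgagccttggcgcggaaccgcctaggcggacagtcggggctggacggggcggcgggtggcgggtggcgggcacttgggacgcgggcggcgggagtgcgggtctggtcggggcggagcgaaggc
Ccne1 (chr7:38107441-38107740, minus strand): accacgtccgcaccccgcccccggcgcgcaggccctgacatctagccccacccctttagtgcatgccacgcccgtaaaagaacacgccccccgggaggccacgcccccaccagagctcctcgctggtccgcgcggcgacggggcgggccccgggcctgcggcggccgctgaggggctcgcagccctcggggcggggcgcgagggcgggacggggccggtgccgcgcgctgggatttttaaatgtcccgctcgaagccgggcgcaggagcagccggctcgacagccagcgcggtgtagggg
Kif23 (chr9:61946750-61947049, minus strand): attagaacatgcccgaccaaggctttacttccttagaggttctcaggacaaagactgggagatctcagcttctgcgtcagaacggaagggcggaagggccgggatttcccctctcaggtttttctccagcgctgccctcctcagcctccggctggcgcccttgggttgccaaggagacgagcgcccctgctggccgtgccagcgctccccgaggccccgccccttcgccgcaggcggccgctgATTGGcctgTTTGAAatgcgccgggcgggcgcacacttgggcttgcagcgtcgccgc
Rrm1 (chr7:102441445-102441744, plus strand): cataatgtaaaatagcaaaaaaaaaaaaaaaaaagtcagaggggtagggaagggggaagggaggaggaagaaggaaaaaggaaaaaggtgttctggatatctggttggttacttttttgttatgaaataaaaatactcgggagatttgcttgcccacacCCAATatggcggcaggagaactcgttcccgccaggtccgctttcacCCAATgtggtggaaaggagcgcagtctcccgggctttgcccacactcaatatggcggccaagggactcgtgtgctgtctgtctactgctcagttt
Tyms (chr5:30073576-30073875, minus strand): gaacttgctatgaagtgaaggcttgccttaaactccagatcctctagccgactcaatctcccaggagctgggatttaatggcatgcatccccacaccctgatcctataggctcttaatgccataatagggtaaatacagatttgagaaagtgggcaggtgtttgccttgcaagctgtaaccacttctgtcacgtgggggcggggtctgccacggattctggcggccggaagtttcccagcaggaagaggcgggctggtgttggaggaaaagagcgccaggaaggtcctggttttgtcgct
Mcm6 (chr1:128359656-128359955, minus strand): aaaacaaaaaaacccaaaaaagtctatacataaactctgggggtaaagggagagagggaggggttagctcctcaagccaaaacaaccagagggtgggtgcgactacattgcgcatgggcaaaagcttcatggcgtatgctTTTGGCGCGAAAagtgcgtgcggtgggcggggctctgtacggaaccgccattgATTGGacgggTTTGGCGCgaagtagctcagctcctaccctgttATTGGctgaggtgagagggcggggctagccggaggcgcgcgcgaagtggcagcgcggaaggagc

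The Mki67 promoter held 2 CHR elements, with first bases at -116 and -98 from the start, and 3 CCAAT boxes at -188, -166 and -141. The Kif23 promoter held 1 CHR element at 3, just past the start, and 1 CCAAT box at -7. In the Mcm6 promoter 3 E2F motifs were found, of which those at -110 and -106 overlap on opposite strands, beside CCAAT boxes at -57 and -14. The Rrm1 promoter had 2 CCAAT boxes, at -91 and -45. None of these letters was found in the windows of Ccne1 and Tyms. Over the 35 promoters of members, 54.3% held a CHR element against 19.2% of all 32851 promoters in the table, 77.1% held a CCAAT box against 37.4%, and 17.1% held an E2F motif against 2.26%. Among promoters of members that fell, 57.1% held a CHR element, and among those that did not pass the test 52.6% did. For the CCAAT box these shares were 92.9% and 68.4%, and for the E2F motif 21.4% and 15.8%, over 14 and 19 promoters and with no test. A match is a description of the letters, not a site of binding.

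Most of the 40 genes were lower in neutrophils from SP lungs or did not pass the test, and Mki67 stood apart from the rest. Of the 40, 17 fell (42.5%), where 22.6% of all rows fell. Mki67 and Ccne1 rose (5.0% of the members), where 21.5% of all rows rose. By at least 2-fold, 6 genes fell (15%, against 11.3% of all rows): Kif23, Ccna2, Rrm1, Tyms, Mcm6 and Mcm4. Mki67 rose by at least 2-fold (2.5% of the members, against 6.37% of all rows). In 17 members every SP value lay below every PBS value, which held for 21.8% of all rows, and in 2 every SP value lay above, which held for 27.2%. The median difference over the members was -0.22, beside 0.10 over all rows.

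These counts depend on how the arrays are put on a common scale. The median was not the same on all deposited arrays: the SP medians (5.78 to 5.91) lay below the PBS medians (6.06 to 6.20), a mean difference of -0.28. With each array centred on its median, the median over all rows moved to 0.38 and over the members to 0.06. Then 11 members fell, where 16.4% of all rows fell, and 4 rose, where 57.7% of all rows rose, against 17 and 2 on the deposited scale, and Kif23 was the only one at least 2-fold lower. All 19 genes that passed the test kept their direction in every alternative run, and 12 of them also kept their call in each alternative that tested them: Mki67, Ccne1, Kif23, Ccna2, Rrm1, Rrm2, Tyms, Mcm4, Mcm6, Bub1, Kif11 and Top2a.

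**Figure D1:**
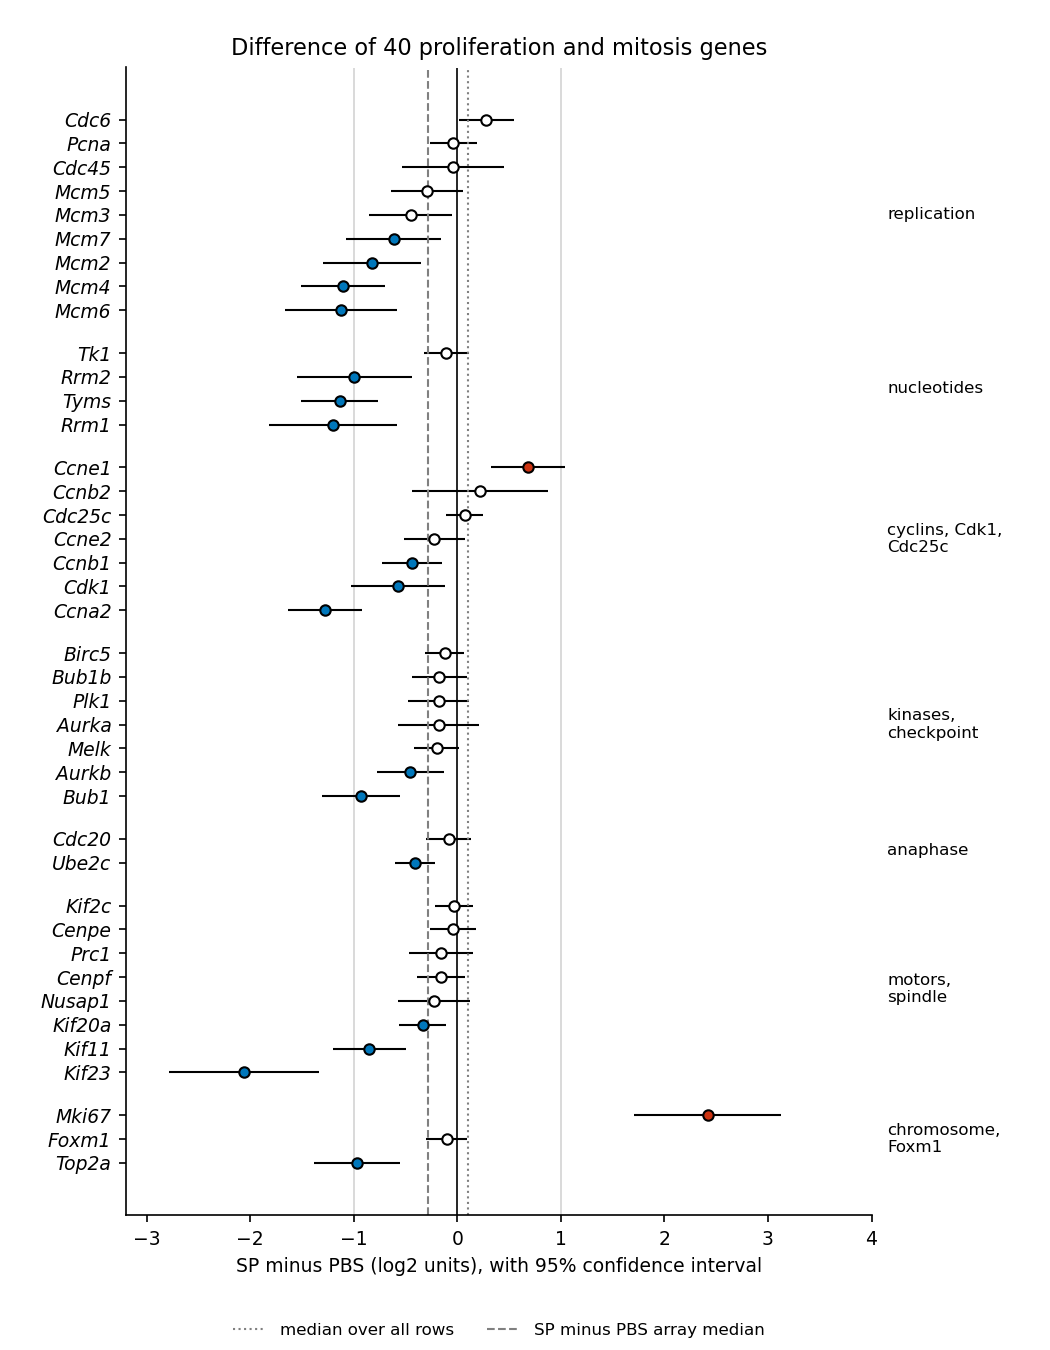
Difference between SP and PBS (log2 units) for each of the 40 genes, grouped by role, with bars for the 95% confidence interval from limma (n = 4 samples a group). Filled points passed an adjusted p of 0.05 (red higher, blue lower in SP), open points did not, the dotted line is the median over all rows (0.10), the dashed line the difference of the array medians (-0.28) and the light lines mark 2-fold. Mki67 sits alone on the right at 2.42 and Kif23 farthest left at -2.06.

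The 6 subunits of the MCM helicase, which unwinds DNA at the fork, gave 4 falls. Values are listed in the order of replicates 1 to 4. Mcm4 (NM_008565) read 8.71, 8.26, 8.62 and 8.66 on the PBS arrays and 7.68, 7.52, 6.97 and 7.66 on the SP arrays. Mcm6 (NM_008567) read 7.97, 7.80, 7.46 and 7.72 on the PBS arrays and 6.59, 6.80, 5.95 and 7.13 on the SP arrays. The groups did not overlap for either gene, and SP replicate 3 was the lowest array. Mcm4 fell by 1.11 ± 0.18 (SE) on the log2 scale (2.15-fold, limma adjusted p = 0.00143) and Mcm6 by 1.12 ± 0.24 (2.17-fold, adjusted p = 0.00579). Without SP replicate 3 both stayed called and were under 2-fold, at -0.94 and -0.90.

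Mcm2 read 7.66, 7.18, 6.97 and 7.33 on the PBS arrays and 6.42, 6.84, 5.98 and 6.60 on the SP arrays. It fell by 0.82 ± 0.21 (adjusted p = 0.0128) with no overlap between the groups, and under a further quantile normalization its difference was -0.42 (adjusted p = 0.079). Mcm7 read 8.89, 8.54, 8.48 and 8.71 on the PBS arrays and 8.06, 8.47, 7.48 and 8.15 on the SP arrays. Its highest SP value almost reached the lowest PBS value, and its fall of 0.61 ± 0.20 (adjusted p = 0.0377) was lost in 5 of the 8 fits that left out 1 array (PBS replicates 1, 2 and 4 and SP replicates 1 and 4, with adjusted p from 0.0526 to 0.0996). It was also lost with centred arrays (-0.33), with a further quantile normalization (-0.39) and with the methods' t-test, the test that the study's methods name (adjusted p = 0.0721). Mcm3 and Mcm5 did not pass the test, with differences of -0.45 ± 0.17 (95% confidence interval -0.85 to -0.06) and -0.29 ± 0.15 (-0.64 to 0.05). Without PBS replicate 2, Mcm5 passed at an adjusted p of 0.0348. Whether the 6 subunits differ from each other in their response was not tested.

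The factors around the helicase showed less. Pcna, the sliding clamp of DNA polymerases, was bright and read 11.29, 10.98, 10.87 and 11.10 on the PBS arrays and 10.95, 11.05, 11.05 and 11.04 on the SP arrays. The SP values lay inside the PBS range, and the difference of -0.04 ± 0.10 had an interval of -0.27 to 0.19, which is narrow beside the changes of the MCM genes. Cdc45, an activator of the helicase, differed by -0.05 ± 0.21 (-0.54 to 0.45). Cdc6, which loads MCM onto origins, read 4.81, 4.38, 4.64 and 4.52 on the PBS arrays and 4.99, 4.91, 4.92 and 4.66 on the SP arrays, at the level of the Y-linked background in most arrays. Its difference of 0.28 ± 0.12 missed the threshold (adjusted p = 0.078), and it passed with centred arrays (0.56, adjusted p = 0.00605), without PBS replicate 1 (adjusted p = 0.0474) and without SP replicate 4 (adjusted p = 0.0404).

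Of the 4 genes of deoxynucleotide synthesis, 3 fell, and the group had a median difference of -1.06. Rrm1 (NM_009103), the large subunit of ribonucleotide reductase, read 8.86, 8.53, 8.34 and 8.18 on the PBS arrays and 7.43, 7.46, 6.48 and 7.74 on the SP arrays. Tyms (NM_021288), the thymidylate synthase, read 7.65, 7.86, 7.35 and 7.50 on the PBS arrays and 6.43, 6.42, 6.14 and 6.83 on the SP arrays. Every SP array lay below every PBS array for both. Rrm1 fell by 1.20 ± 0.27 (2.3-fold, adjusted p = 0.00781), with -0.94 when SP replicate 3 was left out, and Tyms by 1.13 ± 0.16 (2.19-fold, adjusted p = 0.000828). Rrm2, the small subunit of the reductase, read 6.57, 5.55, 5.70 and 5.75 on the PBS arrays and 4.98, 4.91, 5.21 and 4.48 on the SP arrays and fell by 0.99 ± 0.24 (adjusted p = 0.0114). Its SP mean of 4.90 was no higher than the highest Y-linked value, so the size of the fall may be understated. Tk1, the thymidine kinase of the salvage route, differed by -0.11 ± 0.09 (-0.32 to 0.11).

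Among the cyclins the directions split. Ccne1 (NM_007633), the cyclin E that starts S phase with Cdk2, read 5.38, 5.04, 5.25 and 5.08 on the PBS arrays and 6.19, 6.06, 5.64 and 5.60 on the SP arrays. All SP values were above all PBS values, and Ccne1 rose by 0.68 ± 0.15 (1.61-fold, adjusted p = 0.00809). Its paralog Ccne2 differed by -0.22 ± 0.13 (-0.52 to 0.07), and passed as a fall without PBS replicate 2 (adjusted p = 0.0201). Ccna2 (NM_009828), the cyclin A of S phase and early mitosis, read 7.37, 6.75, 6.62 and 6.88 on the PBS arrays and 5.65, 5.59, 5.52 and 5.73 on the SP arrays. The SP arrays were tightly grouped between 5.52 and 5.73, well below any PBS array, and Ccna2 fell by 1.28 ± 0.16 (2.43-fold, adjusted p = 0.000343).

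Cdk1, the kinase of mitotic entry, read 7.02, 6.08, 6.32 and 6.34 on the PBS arrays and 6.01, 5.76, 5.66 and 6.03 on the SP arrays. Its fall of 0.57 ± 0.20 (adjusted p = 0.0459) was the one nearest the threshold and rested on all arrays: it was lost in 7 of the 8 fits that left out 1 array, all but the one without PBS replicate 2, with adjusted p up to 0.095 and a difference of -0.38 without PBS replicate 1. With centred arrays it was -0.29 and with a further quantile normalization -0.28, both short of the threshold, and the methods' t-test lost the call as well (adjusted p = 0.0827). Ccnb1, a cyclin B, read 5.38, 4.88, 4.90 and 4.90 on the PBS arrays and 4.45, 4.62, 4.71 and 4.53 on the SP arrays, and fell by 0.44 ± 0.13 (adjusted p = 0.0246). All 4 SP values lay within the Y-linked background range, so the size of the fall may be understated. PBS replicate 1 was far above the other PBS arrays, and the call was lost without SP replicate 1 (adjusted p = 0.0677) and with centred arrays (-0.16). Its paralog Ccnb2 differed by 0.22 ± 0.29 with a wide interval of -0.44 to 0.88. Cdc25c, the phosphatase that activates Cdk1, read 4.45, 4.39, 4.49 and 4.47 on the PBS arrays and 4.50, 4.40, 4.68 and 4.52 on the SP arrays, which is within the background range. It differed by 0.07 ± 0.08, passed as higher with centred arrays (0.35) and had the opposite sign with a further quantile normalization (-0.08).

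**Figure D2:**
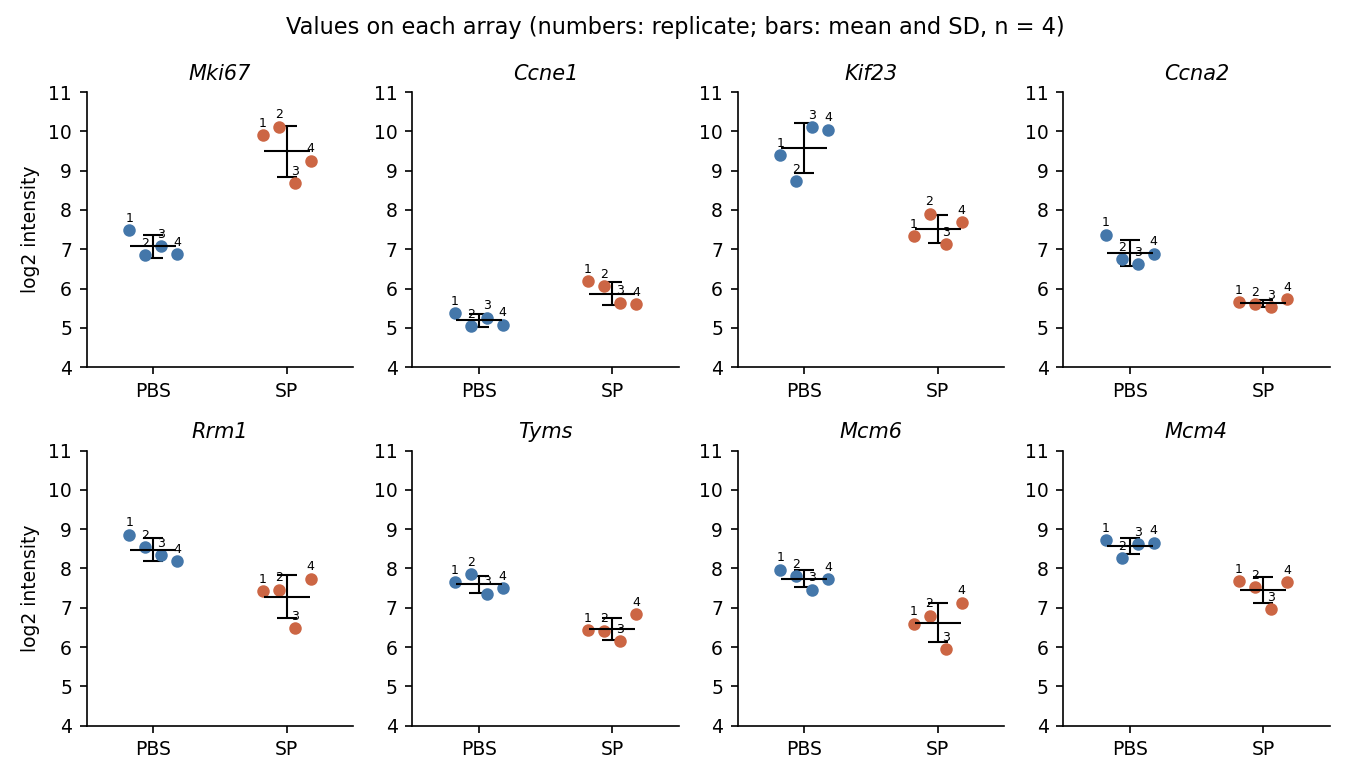
Log2 intensity on each of the 8 arrays (numbers give the replicate, bars the mean and SD, n = 4) for the members that rose and for those that fell by at least 2-fold, on 1 common axis. In all 8 panels the SP and PBS values do not overlap, with the widest gap for Mki67, whose lowest SP value (8.68) lay above its highest PBS value (7.48).

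Of the kinases and checkpoint proteins of mitosis, Bub1 and Aurkb fell. Bub1, a kinase of the spindle checkpoint, read 5.83, 6.32, 5.93 and 5.67 on the PBS arrays and 4.71, 5.25, 5.12 and 4.95 on the SP arrays and fell by 0.93 ± 0.16 (1.91-fold, adjusted p = 0.0024) with no overlap. Aurkb, the kinase of the chromosomal passenger complex, read 6.03, 5.38, 5.45 and 5.53 on the PBS arrays and 5.19, 5.21, 5.07 and 5.12 on the SP arrays. It fell by 0.45 ± 0.14 (adjusted p = 0.0311), and the call was lost in 5 of the 8 fits that left out 1 array (PBS replicate 4 and each SP replicate in turn, adjusted p 0.0522 to 0.0613), with centred arrays (-0.17) and with the methods' t-test (adjusted p = 0.0546). Birc5, the survivin subunit of the same complex, read 4.62, 4.63, 4.70 and 4.51 on the PBS arrays and 4.42, 4.41, 4.66 and 4.47 on the SP arrays, all within the background range. Its difference of -0.12 ± 0.08 (-0.31 to 0.07) missed the threshold, and was 0.16 with centred arrays and -0.28 (adjusted p = 0.00956) with a further quantile normalization.

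Plk1 and Aurka, kinases of the centrosome and spindle, differed by -0.18 ± 0.13 (-0.47 to 0.11) and -0.18 ± 0.17 (-0.57 to 0.21), and the checkpoint protein Bub1b by -0.17 ± 0.12 (-0.44 to 0.09). None of the 3 passed. Melk, a kinase found in proliferating cells, read 5.24, 5.22, 5.22 and 5.25 on the PBS arrays and 5.07, 4.78, 5.19 and 5.08 on the SP arrays. It was the only member whose groups did not overlap and which did not pass (difference -0.20 ± 0.09, adjusted p = 0.116). It passed with a further quantile normalization (-0.27) and was 0.08 with centred arrays. At the exit from mitosis, Ube2c, the ubiquitin-conjugating enzyme of the anaphase-promoting complex, read 6.35, 6.15, 6.21 and 6.35 on the PBS arrays and 5.87, 5.99, 5.74 and 5.82 on the SP arrays and fell by 0.41 ± 0.09 (adjusted p = 0.0058). The call was lost with centred arrays (-0.13) and with a further quantile normalization (-0.11). Cdc20, the activator of that complex, differed by -0.08 ± 0.09 (-0.30 to 0.13).

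Kif23 (NM_024245) had the largest fall of the 40. It is the motor of centralspindlin, which bundles the midzone of the spindle where the cleavage furrow forms, and it read 9.40, 8.73, 10.11 and 10.04 on the PBS arrays and 7.33, 7.91, 7.13 and 7.68 on the SP arrays. PBS replicate 2 was the lowest PBS array, and it was still above every SP array. The fall of 2.06 ± 0.32 (4.16-fold, adjusted p = 0.00118) ranged from -2.34 to -1.88 when 1 array was left out. Kif11, the motor that separates spindle poles, read 6.24, 5.56, 5.62 and 5.59 on the PBS arrays and 4.98, 4.81, 4.92 and 4.90 on the SP arrays and fell by 0.85 ± 0.15 (adjusted p = 0.00277). All 4 SP values of Kif11 were between 4.81 and 4.98, next to the highest background value of 4.90, so that this fall too may be understated. Kif20a, another motor of the midzone, read 5.29, 5.05, 5.38 and 5.25 on the PBS arrays and 4.88, 4.80, 5.09 and 4.85 on the SP arrays, with SP replicate 3 above PBS replicate 2. It fell by 0.34 ± 0.10 (adjusted p = 0.0254), which was lost in 6 of the 8 fits that left out 1 array (PBS replicates 1, 3 and 4 and SP replicates 1, 2 and 4, adjusted p 0.053 to 0.0696) and was -0.05 with centred arrays.

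The other spindle and kinetochore genes did not pass. On every array 17 of the 40 members lay below the array median, as did 42.2% of all rows. Prc1, which crosslinks midzone microtubules, differed by -0.16 ± 0.14 (-0.47 to 0.15). Nusap1, a spindle microtubule binder, differed by -0.22 ± 0.15 (-0.57 to 0.13). The kinetochore proteins Cenpe and Cenpf differed by -0.04 ± 0.10 (-0.26 to 0.18) and -0.16 ± 0.10 (-0.39 to 0.07), and Kif2c, which takes microtubules apart at kinetochores, by -0.03 ± 0.08 (-0.21 to 0.15). Cenpe, Cenpf and Kif2c had both group means at or below the highest Y-linked value of 4.90, as did Cdc25c, Birc5 and Cdc6. In the test used throughout, none of these genes passed, which at such a signal does not show that there was no difference. Cdc25c, Birc5 and Cdc6 passed in some alternatives, as given above.

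Mki67 (NM_001081117) encodes the protein Ki-67 that coats mitotic chromosomes and is widely stained as a marker of cycling cells. It read 7.48, 6.85, 7.07 and 6.88 on the PBS arrays and 9.91, 10.12, 8.68 and 9.25 on the SP arrays. Even SP replicate 3, the lowest SP array, was far above PBS replicate 1, the highest PBS array. Mki67 rose by 2.42 ± 0.31 (5.34-fold, adjusted p = 0.000448). Leaving out 1 array at a time moved the difference between 2.21 and 2.69, and under centred arrays it was 2.70. Mki67 minus another member was also taken within each array. A constant shift of an array does not touch this measure, while a further quantile normalization can. By it the 4 SP arrays were above the 4 PBS arrays against all 39 other members, with relative differences from 1.73 to 4.48. It reuses the Mki67 values above and is not separate support for the rise. Top2a, the topoisomerase that untangles chromosomes and is often stained beside Ki-67, read 6.98, 6.52, 6.12 and 6.20 on the PBS arrays and 5.37, 5.65, 5.49 and 5.46 on the SP arrays and fell by 0.97 ± 0.18 (1.95-fold, adjusted p = 0.00324). Foxm1, a transcription factor of the G2 and M genes, differed by -0.10 ± 0.09 (-0.30 to 0.09) at values between 4.77 and 5.16.

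Within the PBS group the 40 genes varied together between arrays. PBS replicate 1 was the highest PBS array for 30 of the 40 members, while it was highest for 17.3% of all rows, and PBS replicate 2 was the lowest for 24, while it was lowest for 36.3% of all rows. On the same array, PBS replicate 1, B cell markers summed to 3272, against 1676 to 2041 on the other PBS arrays. Alveolar macrophage markers summed there to 12820 against 7378 to 8541, T cell markers to 504.5 against 303.7 to 353.2, and neutrophil markers to 62860 against 59790 to 70090. Sums for fibroblasts, NK cells, and monocytes and macrophages were also highest on PBS replicate 1. Other sums were highest on PBS replicate 2: endothelial 26140 (20150 on PBS replicate 1), ciliated 10280 (7888) and alveolar type 2 47600 (38850). Those of alveolar type 1 cells, club cells and platelets were highest on PBS replicate 2 as well. The part of such cells in the order of the arrays was not tested. The order of the SP arrays was less uniform. SP replicate 3 was lowest for 15 members, a share near its 33.9% of all rows. It was highest for 9 members, while it was highest for 41.1% of all rows. For Mki67 and for each of the 6 genes that fell at least 2-fold it was the lowest SP array. The mean over the members was 5.76 there, against 5.92 to 5.98 on the other SP arrays. SP replicate 3 had the lowest B cell (394.8) and alveolar macrophage (2687) sums of the SP arrays and the highest neutrophil sum (64760, against 41810 to 48970). Sums for T cells, NK cells, monocytes and macrophages, and fibroblasts were also lowest on SP replicate 3. So were those for endothelium, ciliated cells and alveolar type 1 and type 2 cells, while those for club cells and platelets were not. Without PBS replicate 1, 14 members fell and 3 rose, and without SP replicate 3, 15 fell and 2 rose.

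**Figure D3:**
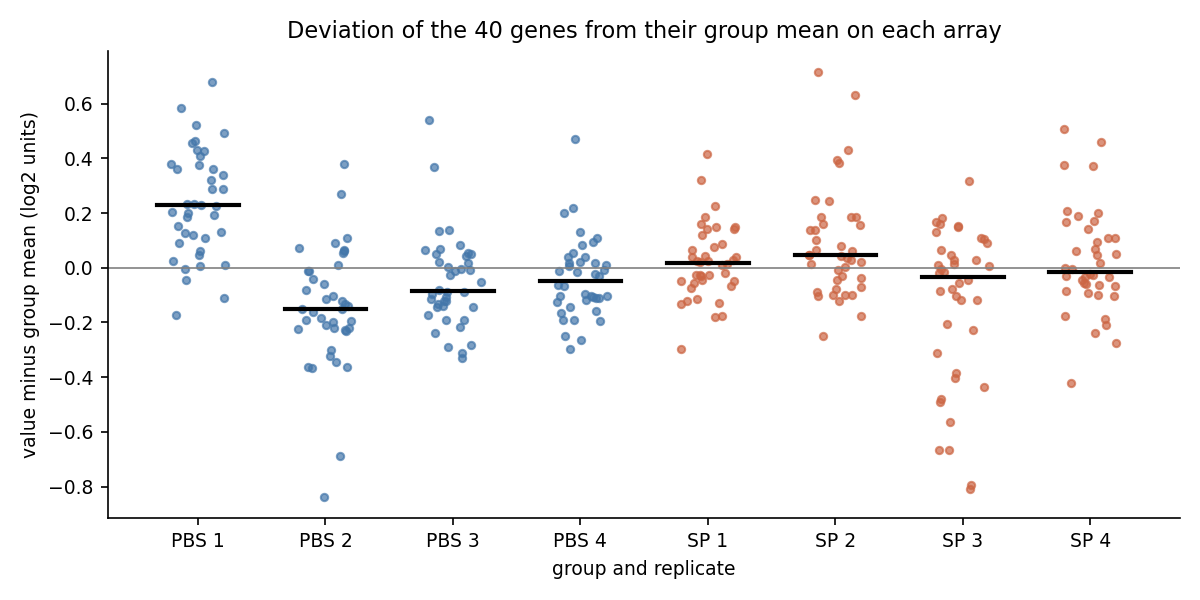
Value of each of the 40 genes minus the mean of its own group (log2 units) on each array, 1 point per gene, with a bar at the median over the genes. The points of PBS replicate 1 lie mostly above 0, and it was the highest PBS array for 30 of the 40 genes.

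Genes of the same pathways outside the 40 gave a mixed picture, in which some rises were larger than that of Mki67. Of 139 further cell cycle genes with a row, 22 rose and 44 fell, where 21.5% of all rows rose and 22.6% fell. By at least 2-fold there were 14 rises and 10 falls, where 6.37% of all rows rose and 11.3% fell. With centred arrays the split turned to 48 rises and 23 falls, where 57.7% of all rows rose and 16.4% fell. Among 44 further replication genes 12 rose and 15 fell. Mcm10, which links the helicase to DNA polymerase alpha, read 5.51, 5.19, 5.63 and 5.65 on the PBS arrays and 8.57, 8.52, 8.50 and 7.80 on the SP arrays and rose by 2.85 ± 0.19 (7.22-fold, adjusted p = 1.86e-05). Cdt1, the partner of Cdc6 in loading MCM, read 6.61, 6.13, 6.05 and 6.02 on the PBS arrays and 9.68, 9.48, 7.89 and 8.83 on the SP arrays and rose by 2.77 ± 0.37 (6.81-fold, adjusted p = 0.000525). Mcm10 and Cdt1 thus moved opposite to Mcm4 and Mcm6, with no overlap between groups in any of these 4 genes. Rpa3, a subunit of the protein that covers single-stranded DNA, fell by 1.28 ± 0.19 (2.42-fold, adjusted p = 0.00109).

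Among 56 further mitosis genes 3 rose and 14 fell, where 21.5% of all rows rose and 22.6% fell. On every array 37 of the 56 lay below the array median, as did 42.2% of all rows. Ect2, which activates RhoA at the furrow after recruitment by centralspindlin, read 7.52, 7.04, 7.87 and 7.84 on the PBS arrays and 5.71, 6.41, 5.56 and 5.83 on the SP arrays and fell by 1.69 ± 0.23 (3.23-fold, adjusted p = 0.000689). Anln, the anillin scaffold of the contractile ring, read 7.24, 6.59, 6.47 and 6.68 on the PBS arrays and 5.14, 4.96, 5.37 and 5.36 on the SP arrays and fell by 1.54 ± 0.18 (2.9-fold, adjusted p = 0.000254). Both fell without overlap between the groups, as Kif23 did. Ncapd2, a subunit of condensin I, fell by 1.18 ± 0.15 (2.26-fold, adjusted p = 0.000503), while Ncapg2, a subunit of condensin II, read 6.16, 5.95, 5.95 and 5.86 on the PBS arrays and 8.43, 8.81, 7.72 and 8.15 on the SP arrays and rose by 2.30 ± 0.21 (4.91-fold, adjusted p = 8.45e-05). Ckap2l, a spindle protein, rose by 1.75 ± 0.33 (3.37-fold, adjusted p = 0.00336).

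Upstream of S phase, the G1 cyclins and kinases were bright and 5 of 6 passed. For this list and the next, the shares over all rows were 21.5% risen and 22.6% fallen. Cdk6 rose by 1.27 ± 0.13 (adjusted p = 0.000146) and Ccnd2, its cyclin D2, by 0.92 ± 0.10 (adjusted p = 0.000211). Ccnd1 fell by 1.22 ± 0.22 (adjusted p = 0.00252), Cdk2 by 0.98 ± 0.24 (adjusted p = 0.0112) and Ccnd3 by 0.61 ± 0.19 (adjusted p = 0.0325), and Cdk4 differed by -0.66 ± 0.24 (-1.21 to -0.11). The call of Ccnd3 was lost with centred arrays and in 6 of the 8 fits that left out 1 array (all but those without PBS replicate 2 and SP replicate 3), with adjusted p up to 0.184 over all alternatives. Of 16 E2F factors, pocket proteins and Myb or MuvB factors, E2f3 (difference 0.56) and the pocket protein Rbl1 (1.38, 2.6-fold, adjusted p = 0.0014) rose. E2f1 (-0.41), E2f2 (-1.09), E2f5 (-0.81), E2f7 (-0.37), E2f8 (-0.45), Rb1 (-0.44) and Rbl2 (-1.17) fell. With centred arrays E2f1, E2f7, E2f8 and Rb1 missed the threshold. Leaving out 1 array lost the calls of E2f1 (PBS replicate 1 or 4, SP replicate 2 or 3), Rb1 (PBS replicate 1, 2 or 3, SP replicate 4) and E2f7 (PBS replicate 1), and a further quantile normalization those of E2f1 and E2f2. The SP mean of E2f8 (4.81) lay within the background range. The paralogs Rbl1 and Rbl2 read 8.29, 8.20, 8.01 and 8.19 on the PBS arrays and 9.97, 9.91, 8.96 and 9.34 on the SP arrays, and 9.06, 9.07, 9.29 and 9.32 on the PBS arrays and 8.08, 7.87, 8.27 and 7.84 on the SP arrays, so the first rose and the other fell without overlap.

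Of 7 CDK inhibitors, which brake the cycle, 4 fell, where 22.6% of all rows fell. Cdkn1b (p27) fell by 1.25 ± 0.21 (2.38-fold, adjusted p = 0.00169) and Cdkn2c (p18) by 1.04 ± 0.10 (2.06-fold, adjusted p = 9.69e-05). Cdkn1c (-0.57) and Cdkn2b (-0.67) fell as well, and their calls were lost with centred arrays, with a further quantile normalization and without PBS replicate 1, that of Cdkn1c also without PBS replicate 2, SP replicate 1 or SP replicate 2 (adjusted p up to 0.121 for Cdkn1c and 0.0825 for Cdkn2b over all alternatives). Cdkn1a (p21) was bright in both groups, at 11.52 ± 0.14 in PBS and 11.62 ± 0.28 in SP, and differed by 0.10 ± 0.15 (-0.24 to 0.43). Of 10 growth arrest genes, Ccng1 fell by 0.89 ± 0.11 and, where 21.5% of all rows rose, 3 rose. These were the stress sensors Gadd45b (by 2.51 ± 0.32, 5.68-fold, adjusted p = 0.000468) and Gadd45g (by 1.71 ± 0.17, 3.27-fold, adjusted p = 0.000124) and the p53 ligase Mdm2 (by 1.19 ± 0.13, 2.28-fold, adjusted p = 0.000231). Trp53 itself differed by -0.06 ± 0.17 (-0.44 to 0.33).

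**Figure D4:**
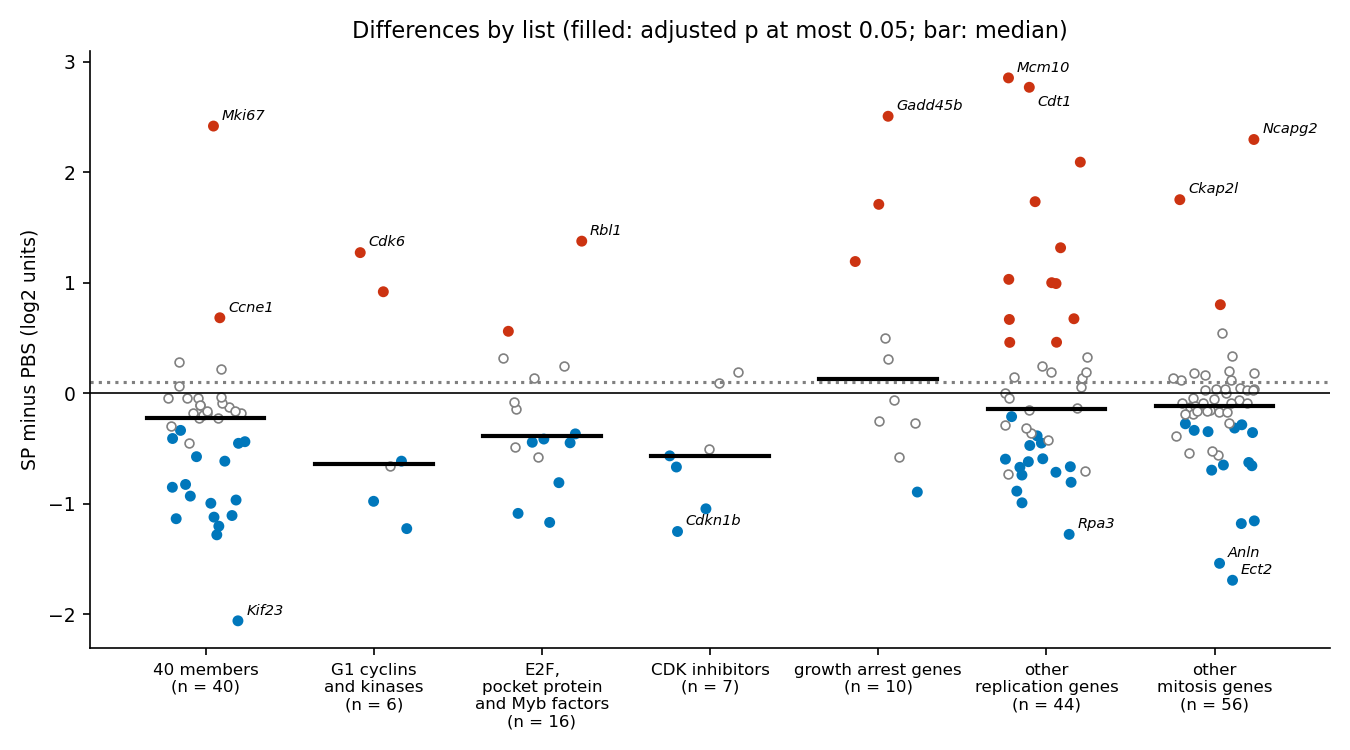
Difference between SP and PBS (log2 units) for the 40 genes and for 6 lists of further cell cycle genes, 1 point per gene, filled where the adjusted p was at most 0.05 (red higher, blue lower) and open otherwise, with a bar at the median of each list. Replication genes spread widest upward, to 2.85 for Mcm10 and 2.77 for Cdt1, and among mitosis genes Ncapg2, Ckap2l, Ect2 and Anln lie farthest from 0.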

How the data were processed

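The samples were 8 Affymetrix arrays of lung neutrophil RNA, grouped as PBS or SP by their titles. The authors processed the signals by robust multi-array averaging (correcting for background and for the GC content and sequence of probes, then quantile normalization, with the probes of a gene summarised by median polish), and the deposited values are on a log2 scale. The submitters' processing notes also name Affymetrix Expression Console and Partek. All 8 value columns were used. The number of arrays limits the precision.

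Row accessions were matched without versions to RefSeq genes of GRCm38.p6, which named 19915 of 24625 rows. Each row was compared with limma 3.58.1 (R 4.3.3; lmFit and eBayes, two-sided, no covariates, Benjamini-Hochberg over all rows, threshold 0.05, with 1 log2 unit as 2-fold). The steps were first tested on simulated data with known changes. Motifs, tables and figures used Python 3.11.15 and matplotlib 3.10.9. Quantile normalization makes values relative within an array, so a change in total RNA cannot be read from them. The medians of the deposited arrays still differed between the groups (6.06 to 6.20 in PBS, 5.78 to 5.91 in SP). The step at which this arose was not tested.

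Members and gene lists were chosen with earlier results of these data known. Named were all members, the passing G1, E2F and CDK inhibitor genes, in each other cell cycle list the 3 largest rises and falls of at least 2-fold without overlap, and leading genes of cell type lists; other genes were named after their values were seen. One gene that the rule would name is not reported here by name and stands only in counts and medians. Pcna, Tyms, Ccnb1 and Ccnb2 have pseudogenes in RefSeq, and signal shared with them is uncertain. The alternatives were the methods' t-test (a one-way ANOVA), array weights, a block for the replicate number, a robust intensity-trended prior, centred arrays, a further quantile normalization, only rows at or above the median mean, averaging rows of a symbol, and leaving out each array.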

Additional observations from a re-analysis of the deposited data

Results flagged for a closer look

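In each group of 4 arrays, the gap between the highest or lowest value and its nearest neighbour was divided by the whole range of the group, for 40 genes in 2 groups. Chance flags about 1 in 20 groups, which is 4 of the 80 tested, and 5 passed Dixon's critical ratio. PBS replicate 1 stood apart as the highest PBS array for Ccnb1 (5.38, next value 4.90, ratio 0.962) and for Kif11 (6.24, next value 5.62, ratio 0.906). SP replicate 1 was the lowest SP array for Pcna (10.95, next value 11.04, ratio 0.893), within a range that is narrow for all 4 SP arrays. SP replicate 3 was the highest SP array for Nusap1 (5.39, next value 5.21, ratio 0.83), and SP replicate 4 the lowest for Foxm1 (4.77, next value 4.99, ratio 0.916). Ccnb1 and Kif11 also fell without PBS replicate 1, by 0.32 and 0.69 on the log2 scale.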

How the results depend on the processing

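Of 40 members, 19 passed on the deposited scale, a share near that of all rows, where 10860 of 24625 passed. Other settings gave 15 to 23 calls, apart from leaving out dim rows, which left 14 members to test and 10 calls. Leaving out 1 array at a time gave 14 to 20. Mki67 was the only member at least 2-fold higher in every setting. Falls of at least 2-fold numbered 6, but 1 with centred arrays and 1 with a further quantile normalization, and 4 to 9 when 1 array was left out. The median over the members was -0.22, and became 0.059 with centred arrays and -0.72 with dim rows left out. Of 139 further cell cycle genes 66 passed, and 43 of those 69 that were left to test without dim rows, since fewer genes were tested. The methods' t-test gave 16 members and 10244 rows in all, against 10860 by limma. Array weights gave the most members, 23, and passed 13481 of the 24625 rows, with weights from 0.197 (SP replicate 3) to 2.69 (PBS replicate 4).

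With the replicate number as a block (a paired fit), 18 members passed; the call of Ccnb1 was lost (adjusted p = 0.0617). Deviations of same-numbered samples correlated at 0.02, 0.03, 0.35 and -0.27, so the numbers were not taken to pair the samples.

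The sign changed only in members that did not pass. Centring added 0.281 to the difference of every member, so each of the 16 members between -0.281 and 0 changed sign by construction. The differences became 0.10 for Aurka, 0.16 for Birc5, 0.11 for Bub1b, 0.059 for Ccne2, 0.20 for Cdc20, 0.24 for Cdc45, 0.24 for Cenpe, 0.12 for Cenpf, 0.18 for Foxm1, 0.25 for Kif2c, 0.084 for Melk, 0.060 for Nusap1, 0.24 for Pcna, 0.10 for Plk1, 0.12 for Prc1 and 0.17 for Tk1. With a further quantile normalization they became 0.052 for Aurka, 0.056 for Bub1b, -0.083 for Cdc25c, 0.38 for Cdc45 and 0.15 for Mcm5, and with array weights 0.046 for Cenpe. When 1 array was left out, the difference ranged from -0.019 (without SP replicate 2) to 0.44 for Ccnb2, -0.28 to 0.077 (without PBS replicate 3) for Cdc45, -0.10 to 0.0013 (without PBS replicate 1) for Cenpe, -0.079 to 0.0035 (without PBS replicate 1) for Kif2c and -0.10 to 0.038 (without PBS replicate 1) for Pcna. The cause of the sign changes other than those under centring was not tested. Signal near background limits the 6 members named as such.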

Other observations

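In 4 replication complexes outside the 40 genes, subunits moved in opposite directions; these were picked out after their values were seen. Other complexes did not show it: Orc5 and Orc6 of the origin recognition complex fell and none of its subunits rose, and no measured subunit of GINS or primase passed. Of replication protein A, the complex that covers single-stranded DNA, Rpa2 read 6.41, 6.33, 6.16 and 5.83 on the PBS arrays and 7.17, 7.13, 7.35 and 7.10 on the SP arrays, and rose by 1.0 ± 0.13 (SE, limma adjusted p = 0.000569). Its partners fell: Rpa3 by 1.28 ± 0.19 (adjusted p = 0.00109) and Rpa1 by 0.74 ± 0.23 (adjusted p = 0.0299). Of DNA polymerase alpha, which lays down primers, Pola2 rose by 1.73 ± 0.17 (adjusted p = 0.000112) and the catalytic Pola1 fell by 0.38 ± 0.12 (adjusted p = 0.0321). Of the chromatin assembly factor that follows the fork, Chaf1b rose by 1.32 ± 0.21 (adjusted p = 0.00129) and Chaf1a fell by 0.59 ± 0.13 (adjusted p = 0.00772). Of the clamp loader of Pcna, Rfc5 rose by 0.67 ± 0.14 (adjusted p = 0.00495) and Rfc2 fell by 0.62 ± 0.12 (adjusted p = 0.00422). Rfc1 of the same complex fell too, with differences of -0.83 to -0.38 and a call in 10 of 16 settings. Rfc3 and Rfc4 did not pass. The polymerases of the fork fell, Pold1 by 0.88 ± 0.15 (adjusted p = 0.00176) and Pold2 by 0.99 ± 0.26 (adjusted p = 0.0162). Rfc1 and the other 11 genes that passed all kept their sign in every alternative. The calls of Rpa2, Rpa3, Pola2, Chaf1a, Chaf1b, Rfc5, Pold1 and Pold2 held in every alternative that tested them, while those of Rpa1, Pola1 and Rfc2 were lost with centred arrays. Those of Rpa1 and Pola1 were also lost with a further quantile normalization, with the methods' t-test and when 1 array was left out. This was so for Rpa1 without PBS replicate 1, 2 or 3 or SP replicate 1. For Pola1 it was so without PBS replicate 1, 2 or 3 or SP replicate 1, 3 or 4. Their adjusted p reached 0.0956 and 0.441 over the alternatives. The SP mean of Chaf1a (4.58) lay within the range of the Y-linked background.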
